A study of Mus musculus with 19 samples.

Results

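The granins and the enzymes that turn prohormones into peptides were followed in RNA-seq and ribosome profiling of wild-type mouse hippocampal slices. These are 10 of the 20436 genes in each count table, taken by symbol. They are the granins Chga, Chgb, Scg2, Scg3 and Vgf, the processing enzymes Pcsk1, Pcsk2 and Cpe, and the small proteins Scg5 and Pcsk1n, which act on the convertases. Slices came from male mice aged 28 to 42 days by the labels. They received either vehicle (artificial cerebrospinal fluid, the basal group) or 100 µM DHPG, an agonist of group 1 metabotropic glutamate receptors, for 5 min, and all of them then received 100 µg/ml cycloheximide before freezing. There were 4 basal and 5 DHPG RNA libraries and 5 basal and 5 DHPG libraries of ribosome-protected fragments (RPFs), each from the pooled slices of several mice, and per the study's methods these slices still held area CA3. The RNA-seq measured ribosomal RNA-depleted RNA, and the RPFs report the ribosomes that sit on coding sequence.

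Granins are acidic secretory proteins that aggregate in the Golgi and fill dense core vesicles, the carriers from which neurons and endocrine cells release peptides. Inside the forming vesicle, prohormone convertases cut precursors after pairs of basic residues, and carboxypeptidase E removes the basic residues that are left. In the hippocampus, dense core vesicles carry neuropeptides and neurotrophins that are released during sustained activity, and several granin genes are known targets of cAMP-dependent transcription.

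That regulation is read through the cAMP response element (CRE), so the promoter windows of the RefSeq annotation of GRCm38.p6 (250 bases before to 50 bases after each start) were searched for the full element TGACGTCA, on both strands. Windows were held for 8 of the 10 genes, and not for Vgf and Cpe. The full element was found in 3 of the 8 genes, beside 1.79% of 32851 windows. Members are counted as genes with a match in any of their windows, whereas the shares are over single windows. The 3 matches are shown with their neighbouring bases, in the direction of transcription and with the element in capitals, since the first base of the element lay at a similar distance from the start in all of them (positions -68, -72 and -78).
Scg2, chr1:79440076-79440105, minus strand: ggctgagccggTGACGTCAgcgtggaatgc
Chgb, chr2:132781559-132781588, plus strand: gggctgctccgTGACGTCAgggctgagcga
Pcsk1, chr13:75089768-75089797, plus strand: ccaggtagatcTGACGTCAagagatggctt
The shorter core TGACG, which every full element also contains, was found on either strand in 7 of the 8 genes (Chga, Chgb, Pcsk1, Pcsk2, Scg2, Scg3 and Scg5) beside 20.8% of all windows. In Chga it stood in this stretch, at position -44, with the core in capitals.
Chga, chr12:102554885-102554914, plus strand: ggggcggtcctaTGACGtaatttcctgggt
Chga was also the gene of the 8 with a TATAAA in the direction of transcription, a motif in 8.32% of all windows. It lay at positions 5 to 10, after the annotated start. These matches describe the letters in the windows and not binding of a factor.

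Under basal conditions the 10 genes made up a larger share of RPFs than of RNA. Total counts were 4870813 to 7793244 per RNA library and 5692064 to 22092434 per RPF library. The 10 genes together held 0.408% to 0.467% of the counts in basal RNA libraries and 0.830% to 1.05% in basal RPF libraries. Over basal and DHPG libraries the shares were 0.407% to 0.509% in RNA and 0.830% to 1.07% in RPFs, so the assays did not overlap. In bulk slices, a change in the number of cells of a type cannot be told apart from a change in RNA per cell.

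Levels between genes were compared per length, as CPM (counts scaled to library size) per kilobase, of coding sequence without its first and last 30 nt for RPFs, and of the whole transcript for RNA. Cpe (chr8:64592542-64693054, mm10), carboxypeptidase E, had by far the highest RPF level of the group at 3315 ± 336 (SD, n = 5) CPM per kb, which was rank 13 of the 7795 genes compared. Scg5 (7B2, the chaperone of Pcsk2, chr2:113776362-113829121) followed at 712 ± 67.4, and Pcsk1n (proSAAS, an inhibitor of Pcsk1, chrX:7919822-7924410) stood at 705 ± 78.7. The lowest was Pcsk1 (PC1/3, chr13:75089826-75134861) at 40.1 ± 10.5 CPM per kb, the 54.3rd percentile of the genes compared, whereas the other 9 genes lay at the 91.6th percentile or above.

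The granins fell between these ends. Chgb (chromogranin B, chr2:132781278-132795079) had an RPF level of 615 ± 115 CPM per kb and Scg3 (secretogranin III, which binds Chga and the vesicle membrane, chr9:75643189-75684056) of 553 ± 103. Scg2 (secretogranin II, chr1:79434669-79440120) had 325 ± 43.4, Vgf (a growth factor-inducible precursor of several peptides, chr5:137026392-137033351) 315 ± 27.4 and Chga (chromogranin A, chr12:102554969-102565028) 268 ± 26.8, with the convertase Pcsk2 (PC2, chr2:143546156-143816285) among them at 293 ± 29.5 (n = 5 each). In this order of RPF levels, neighbours were separated without overlap of their 5 basal libraries only between Cpe and Scg5, between Scg3 and Scg2 and between Chga and Pcsk1. The other neighbours overlapped in range. Within libraries, however, Chgb was above Scg3, Vgf above Pcsk2 and Pcsk2 above Chga in 5 of 5, while the order of the remaining neighbours held in 3 of 5.

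The convertases differed from each other in both assays. The RNA level of Pcsk2 was 78.2 ± 8.21 CPM per kb of transcript and that of Pcsk1 was 6.61 ± 1.10 (SD, n = 4), and each basal library held more Pcsk2 than Pcsk1. In the order of RNA levels Cpe (1177 ± 80.8), Pcsk1n (210.2 ± 41.6) and Scg5 (122 ± 6.35) led the group, each without overlap with the next, and the 5 granins and Pcsk2 lay between 40.1 and 86.9 CPM per kb with overlapping neighbours. Cpe ranked 10 of 7795 genes by RNA.

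**Figure D1:**
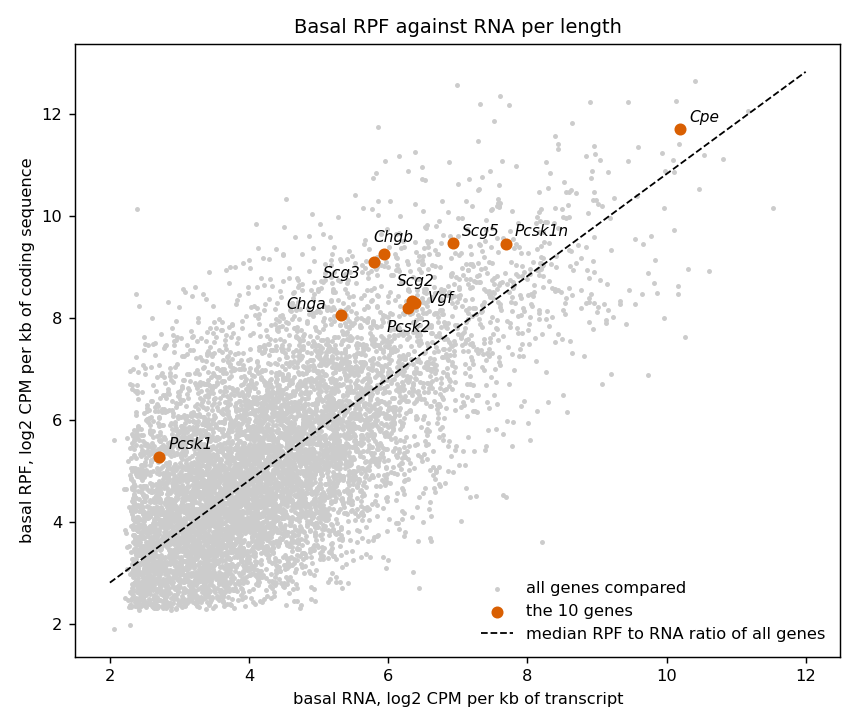
Basal RPF level (y axis, log2 CPM per kb of coding sequence, mean of 5 libraries) against basal RNA level (x axis, log2 CPM per kb of transcript, mean of 4 libraries), with 1 grey point for each of 7795 genes and the 10 genes in orange. The dashed line is the median RPF to RNA ratio of all genes, and the 10 orange points lie above it, with Cpe at the upper right and Pcsk1 at the lower left.

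The ratio of RPF to RNA per length was above the median of all genes for 10 of 10. RNA was divided by the length of the whole transcript here, whereas the study counted both assays on coding sequence for its basal translation efficiency, so the ratios below depend on the untranslated ends and are not that quantity. The median log2 ratio of all 7795 genes was 0.82, with quartiles of 0.00033 and 1.76. Chgb had the highest mean at 3.34 ± 0.83 and Scg3 was next at 3.33 ± 0.63 (log2 ratio, SD, n = 4 replicates with both libraries), at the 95.1st and 94.9th percentiles. These means hide a wide spread between replicates.

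In Chgb the log2 ratio was 2.58, 3.93, 4.18 and 2.69 in basal replicates 1 to 4, and in Scg3 it was 2.75, 3.63, 4.07 and 2.88. Replicates 2 and 3 were high and replicates 1 and 4 low in both genes. Scg2 had the same order, with log2 ratios of 1.61, 2.23, 2.60 and 1.69. Vgf and Pcsk1n had the opposite one: the ratio was 2.23, 1.62, 1.63 and 2.32 in Vgf and 2.14, 1.44, 1.34 and 2.09 in Pcsk1n.

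The ratio was much steadier for Scg5 (2.57 ± 0.086), Chga (2.75 ± 0.12), Pcsk2 (1.93 ± 0.060) and Cpe (1.495 ± 0.15, log2 ratio, SD, n = 4). Pcsk1 had a high ratio of 2.65 ± 0.42, at the 89.3rd percentile, although its RNA level was at the 9.40th percentile. That RNA level, 6.61 CPM per kb, was near the limit of 5 that the genes compared had to exceed in both assays. Cpe was the lowest of the group, at the 69.0th percentile, although its RPF level was the highest. All neighbours in the order of ratios overlapped in range, although Scg3 was above Chga and Scg5 above Scg2 in 4 of 4 replicates. The order also depended on length. As a ratio of CPM without length, the median of all genes compared was -0.15 on the log2 scale. Pcsk1n was then the lowest of the group at 0.13 (61.2nd percentile, from the 74.8th with length). Pcsk2 was at 0.58 (77.5th percentile, from the 78.6th) and Cpe at 0.87 (85.2nd percentile, from the 69.0th). Chgb stayed at the top at 2.87 (99.7th percentile). The coding sequence makes up the smallest share of the annotated transcript in Pcsk1n (774 of 2193 nt, 35.3%), Pcsk2 (1911 of 4723 nt, 40.5%) and Pcsk1 (2259 of 5040 nt, 44.8%). The lengths come from GENCODE, which may differ from the transcripts the authors counted on, and a shorter transcript of Pcsk1n would lower its ratio and raise its RNA level per length.

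Other genes of the same vesicles were set beside them by the same measure. Of the 20 genes listed as neuropeptide and growth factor precursors, 8 met the limits for comparison (over 5 CPM per kb in both assays, coding sequence above 300 nt). Their median log2 ratio was 2.88, with 8 of 8 above the median of all genes. The convertases of other routes of secretion, 4 compared of 7 listed, had a median of -0.63. Above the median of all genes were 0 of the 4, with Pcsk5 the highest of them at 0.29. Of the vesicle membrane and biogenesis genes 6 of 12 compared (14 listed) lay above, and of the genes of vesicle transport and release 1 of 6 (9 listed). Pan-neuronal markers had a median of 2.33 with 9 of 10 above, so that a high ratio was not restricted to vesicle cargo.

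The spread of the RNA levels between basal replicates differed among the members and was widest in Chgb, Vgf and Scg3. In Chgb the RNA level was 285, 139, 101 and 201 CPM in basal replicates 1 to 4, and in Scg3 it was 197, 123, 94.2 and 134. In Vgf it was 197, 314, 309 and 165 CPM. Replicate 1 was thus the highest in Chgb and Scg3 and replicate 3 the lowest, while in Vgf replicates 2 and 3 were high and replicates 1 and 4 low. The largest value was 2.82 times the smallest in Chgb, an SD at the 98.5th percentile of the 7700 genes above 20 CPM, and 2.09 times in Scg3. For comparison, the 4 basal RNA values of Scg5 (155, 151, 148 and 137 CPM) spanned 1.13-fold and those of Cpe (2685, 2587, 2341 and 2355 CPM) 1.15-fold. Scg2, Pcsk1n and Pcsk1 lay between, at 1.65-fold, 1.54-fold and 1.48-fold.

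GC content moved with these deviations over all genes. Spearman's rho between the GC content of a gene's transcript and its deviation from the basal mean was -0.47, 0.37, 0.67 and -0.60 in basal RNA replicates 1 to 4, across 12447 genes that share these libraries. Transcripts had a GC content of 64.1% in Vgf and 57.3% in Pcsk1n, against 46.5% in Scg3, 46.8% in Scg2 and 40.6% in Pcsk1. Chgb, at 53.9%, deviated by 0.76 and -0.74 on the log2 scale in replicates 1 and 3, outside the quartiles of genes of similar GC. The part of GC content in the spread of these genes was not tested.

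**Figure D2:**
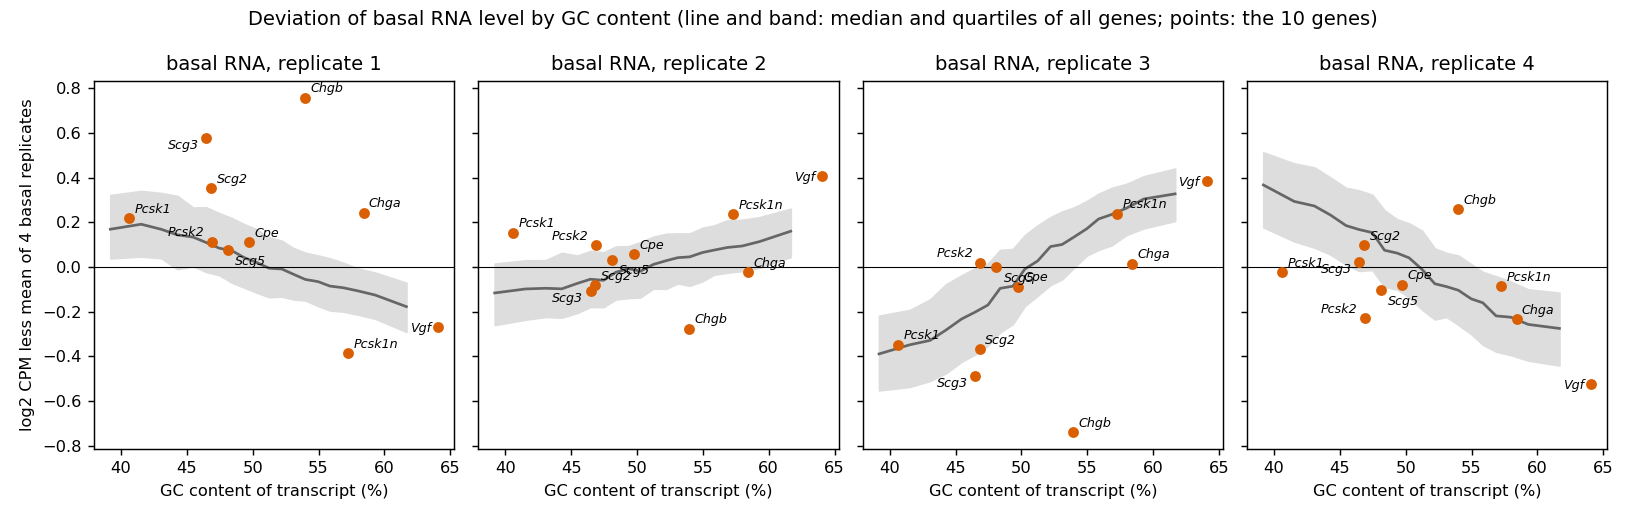
Deviation of the basal RNA level from the mean of the 4 basal replicates (y axis, log2 CPM) against GC content of the transcript (x axis, percent), 1 panel per replicate. The line and band give the median and quartiles of all genes by GC content and the orange points are the 10 genes. The line falls with GC content in replicates 1 and 4 and climbs in replicates 2 and 3, and Chgb (53.9% GC) lies outside the band in each panel.

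DHPG was then compared with vehicle to ask whether 5 min of receptor stimulation changed the RNA, the RPFs or the translation efficiency (TE, the RPF level relative to RNA) of these genes. No gene of the group passed the threshold in any assay, with edgeR's quasi-likelihood F test, the replicate number as a block and Benjamini-Hochberg adjustment over all genes. In RPFs, 0 of 10 were called at an adjusted p under 0.05, where 0.22% of 13208 genes were called. At an unadjusted p under 0.05 the same fit held 7 of the 10, all higher after DHPG, beside 10.8% of all genes (6.55% higher and 4.21% lower). The 7 were Chga, Scg2, Vgf, Scg3, Pcsk2, Cpe and Scg5. The fitted RPF differences of the 10 genes had a median of 0.062 on the log2 scale, beside 0.0031 over all genes, and 9 of 10 were higher beside 51.4% of all genes. Without the replicate block 0 of 10 had an unadjusted p under 0.05. With ComBat by replicate number followed by DESeq2, 7 were called (Chga, Chgb, Cpe, Pcsk2, Scg2, Scg3 and Vgf), in a fit that called 427 RPFs in all. The study also used ComBat and DESeq2, but on counts from a larger set of replicates that included CA1-enriched slices. Here ComBat was applied to log2 CPM of these libraries.

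Among the granins, the RPF level of Vgf was 584, 612, 603, 519 and 505 CPM in basal replicates 1 to 5 and 587, 693, 604, 593 and 571 CPM after DHPG. Each DHPG library was above the basal library of the same number, by least in replicate 3, but the groups overlapped. The fitted difference was 0.11 ± 0.031 (log2, SE; adjusted p = 0.123, edgeR), or 8.13%.

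For Scg2, the RPF level was 565, 643, 682, 501 and 522 CPM in basal slices and 611, 719, 707, 549 and 551 CPM after DHPG. Again 5 of 5 pairs were higher after DHPG within overlapping groups, because replicates 4 and 5 were low in both. The difference was 0.11 ± 0.029 (log2, SE; adjusted p = 0.114, edgeR). Scg2 had the smallest p of the group and was the single gene of the 10 that DESeq2 with the block called. That fit called 28 of 13208 genes.

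Chga had RPF levels of 378, 383, 376, 298 and 346 CPM in basal slices and 421, 436, 379, 329 and 356 CPM with DHPG, higher in 5 of 5 pairs and overlapping between groups. Its fitted difference was 0.11 ± 0.031 (log2, SE; adjusted p = 0.148, edgeR). These 3 granins had the largest RPF differences of the 10 genes. Without replicate 3, in which the difference was small, Chga and Vgf passed the threshold. That fit called 71 of 13137 genes, beside 29 of 13208 with all replicates. Without replicate 1, 2, 4 or 5, 0 of the 10 genes passed.

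Chgb and Scg3 had smaller differences against a larger spread. The RPF level of Chgb was 1224, 1523, 1314, 934 and 1069 CPM in basal slices and 1339, 1539, 1282, 1015 and 1129 CPM after DHPG, and that of Scg3 was 751, 863, 897, 558 and 676 CPM and then 828.7, 861, 927, 579 and 710.2 CPM. In each gene 4 of 5 pairs were higher, the exception being replicate 3 in Chgb and replicate 2 in Scg3, and replicate 4 was the lowest of both groups. The log2 differences were 0.060 ± 0.030 for Chgb (SE; adjusted p = 0.466) and 0.061 ± 0.029 for Scg3 (SE; adjusted p = 0.448, edgeR).

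Among the enzymes, Cpe had RPF levels of 4778, 4905, 4776, 3770.2 and 4447 CPM in basal slices and 5336, 4905, 4909, 3919 and 4629.8 CPM after DHPG. The pair of replicate 2 was nearly equal, the other 4 pairs were higher after DHPG and the groups overlapped (log2 difference 0.062 ± 0.029, SE; adjusted p = 0.435, edgeR). The convertase Pcsk2 went from 564, 591, 585, 463 and 511 CPM to 591, 642, 595, 505 and 515 CPM, higher in 5 of 5 pairs and overlapping (0.069 ± 0.029; adjusted p = 0.375). The convertase Pcsk1 had 95.9, 120.2, 92.9, 61.4 and 70.3 CPM in basal slices and 94.7, 121, 94.1, 68.4 and 60.7 CPM after DHPG, higher in 3 of 5 pairs, with a fitted difference of -0.0099 ± 0.041 (adjusted p = 0.953). Pcsk1 was the member whose fitted RPF value was lower after DHPG, and its sign turned when replicate 5 was left out (0.034).

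The proteins that act on the convertases were close to the rest. The chaperone Scg5 had 422, 445, 445, 368 and 369.5 CPM of RPFs in basal slices and 466, 461, 442, 394 and 382 CPM after DHPG. Its difference was 0.062 ± 0.030 (log2, SE; adjusted p = 0.449, edgeR), with 4 of 5 pairs higher. Pcsk1n had 499, 471, 441, 591 and 516 CPM and then 527, 491, 447, 582 and 565 CPM, a difference of 0.053 ± 0.030 (adjusted p = 0.533). In Pcsk1n replicate 4 was the highest library of each group, whereas in the other 9 genes it was the lowest or the second lowest of the basal group.

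**Figure D3:**
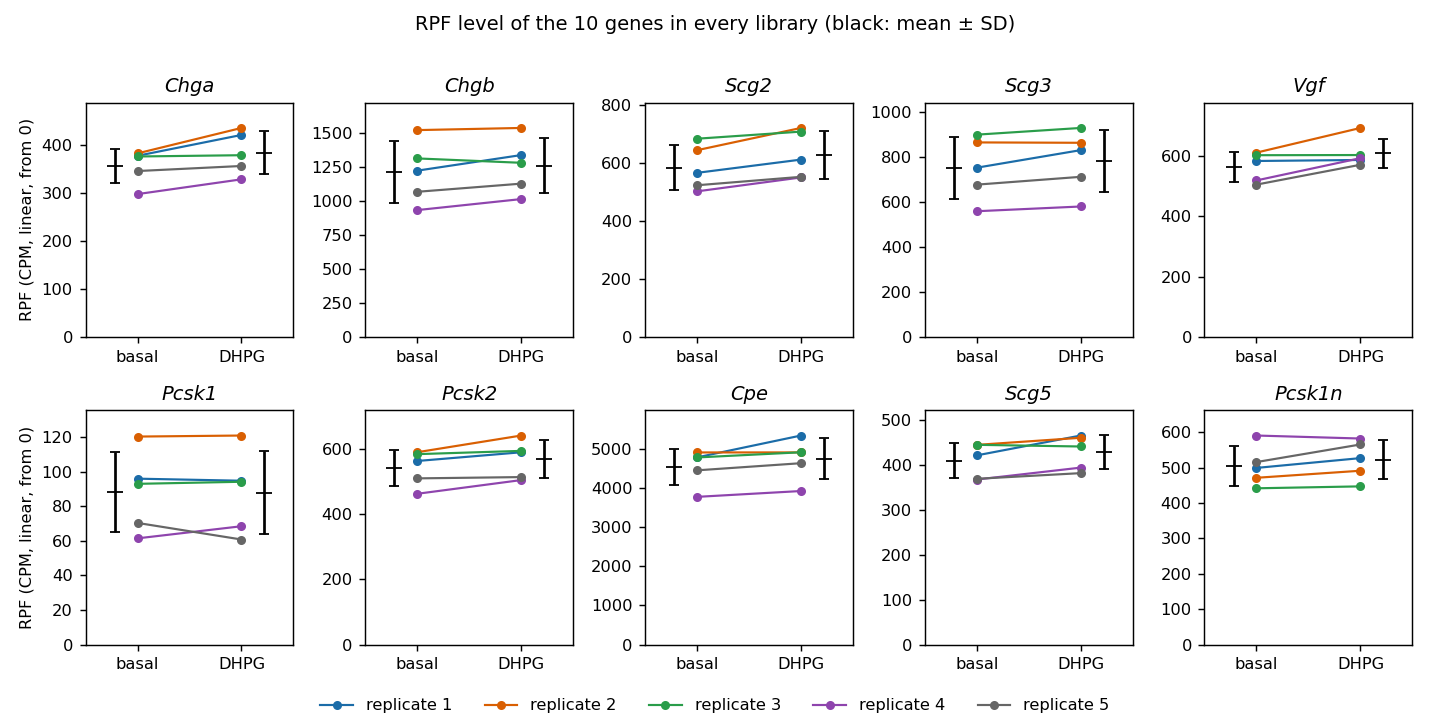
RPF level of each of the 10 genes (y axis, CPM on a linear scale from 0) in basal and DHPG libraries (x axis), with 1 coloured line per replicate number and the mean ± SD of 5 libraries in black. Most lines climb slightly, the spread between replicates is larger than the climb, and the groups overlap in every panel.

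In single replicates the RPF differences had the same sign for most members. Of the 10 genes 9, 9, 8, 9 and 9 were higher in pairs 1 to 5, with medians of 0.12, 0.055, 0.018, 0.12 and 0.065 on the log2 scale, while the medians over all genes were between -0.0070 and 0.014. In RNA, 6, 4, 4 and 4 of the 10 were higher in pairs 1 to 4, with medians of 0.11, -0.026, -0.018 and -0.011. Most members thus had the same sign in the RPFs of each pair, while in RNA they were split in each pair.

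In RNA, 0 of 10 genes were called at an adjusted p under 0.01, where 0.00773% of 12935 genes were called, and 1 of 10 had an unadjusted p under 0.05, beside 8.02% of all genes (5.2% higher and 2.81% lower). DESeq2 with the block also called 0 RNAs of the group. The fitted RNA differences had a median of 0.023 on the log2 scale (0.0068 over all genes) and 7 of 10 were above 0, beside 52.1% of all genes. The 1 gene was Pcsk1n, the inhibitor of Pcsk1. Its RNA level was 347, 534, 535 and 427 CPM in basal replicates 1 to 4 and 453, 516, 560.0, 542 and 539 CPM in DHPG replicates 1 to 5. Replicates 1 and 4 were low in the basal group and 3 of 4 pairs were higher after DHPG, within overlapping groups. The difference was 0.19 ± 0.073 (log2, SE; unadjusted p = 0.0164, adjusted p = 0.558, edgeR), and 0.11 without replicate 1. Without the replicate block no RNA of the group had an unadjusted p under 0.05.

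The RNA of the granins after DHPG varied more between replicates than between treatments. Chgb had 273, 139, 96.2, 189 and 159 CPM after DHPG, below its basal values in 4 of 4 pairs (-0.057 ± 0.069; adjusted p = 0.867). Vgf had 246, 269, 308, 219 and 188 CPM after DHPG, higher in 2 of 4 pairs (0.12 ± 0.082; adjusted p = 0.727). The Vgf difference was 0.028 without replicate 4, 0.050 without replicate 1 and 0.24 without replicate 2. For Chgb the order of replicates 1 to 4 was the same in both groups. For Vgf replicate 5, the replicate that has no basal RNA library and so no pair, was the lowest after DHPG.

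Scg2 RNA was 259.7, 192, 158 and 218 CPM in basal replicates 1 to 4 and 274, 203, 165, 221 and 204 CPM in DHPG replicates 1 to 5, higher in 4 of 4 pairs (0.059 ± 0.067; adjusted p = 0.859). Scg5 RNA was 143, 144, 144, 130.5 and 138 CPM after DHPG, lower than basal in 4 of 4 pairs (-0.074 ± 0.069; adjusted p = 0.819). The groups overlapped in both genes. The other RNAs lay between -0.050 (Pcsk2) and 0.030 (Scg3) on the log2 scale, with standard errors of 0.063 to 0.094.

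**Figure D4:**
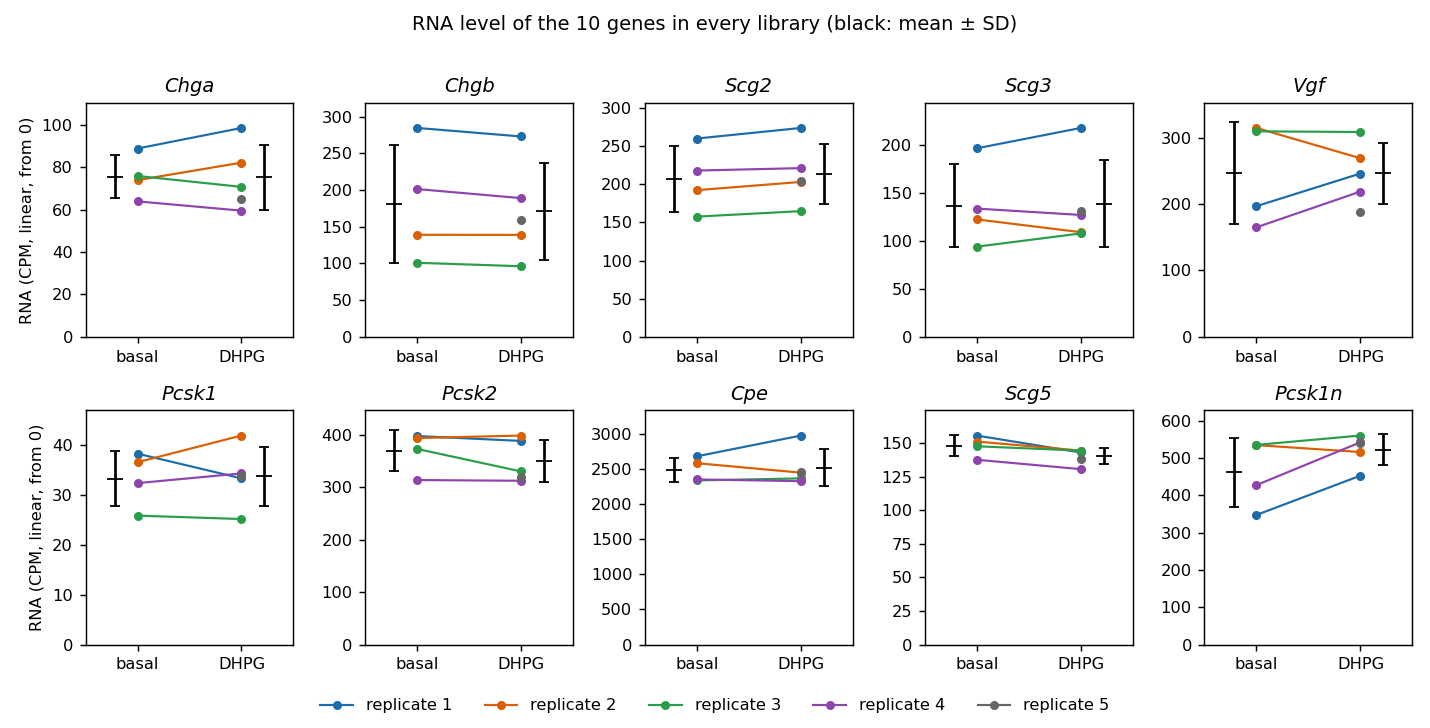
RNA level of each of the 10 genes (y axis, CPM on a linear scale from 0) in basal and DHPG libraries (x axis), with 1 coloured line per replicate number, replicate 5 as a single DHPG point and the mean ± SD of 4 basal and 5 DHPG libraries in black. Lines are nearly flat for Chgb, Scg2 and Scg5 and climb in replicates 1 and 4 for Pcsk1n, and the groups overlap in every panel.

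The change of TE, tested as the interaction of assay and treatment over all 19 libraries, was called for 0 of 10 genes, as for 0% of 12691 genes. At an unadjusted p under 0.05 there were 859 genes in all (6.77%, with 3.14% higher and 3.63% lower) and 1 of the 10, Scg5. DESeq2 with the block also called 0 of the 10. Its TE difference was 0.14 ± 0.065 (log2, SE; unadjusted p = 0.0413, adjusted p = 0.727, edgeR), from the higher RPF and lower RNA values given above. Pcsk2 and Chgb followed at 0.12 each (SE 0.062 and 0.064). Pcsk1n had the lowest value at -0.13 ± 0.074 (adjusted p = 0.761), the reverse of Scg5, and this value was -0.057 without replicate 4, -0.070 without replicate 1 and -0.21 without replicate 2. In all, 7 of 10 TE differences were above 0, beside 49.5% of all genes, with a median of 0.045 against -0.0014.

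**Figure D5:**
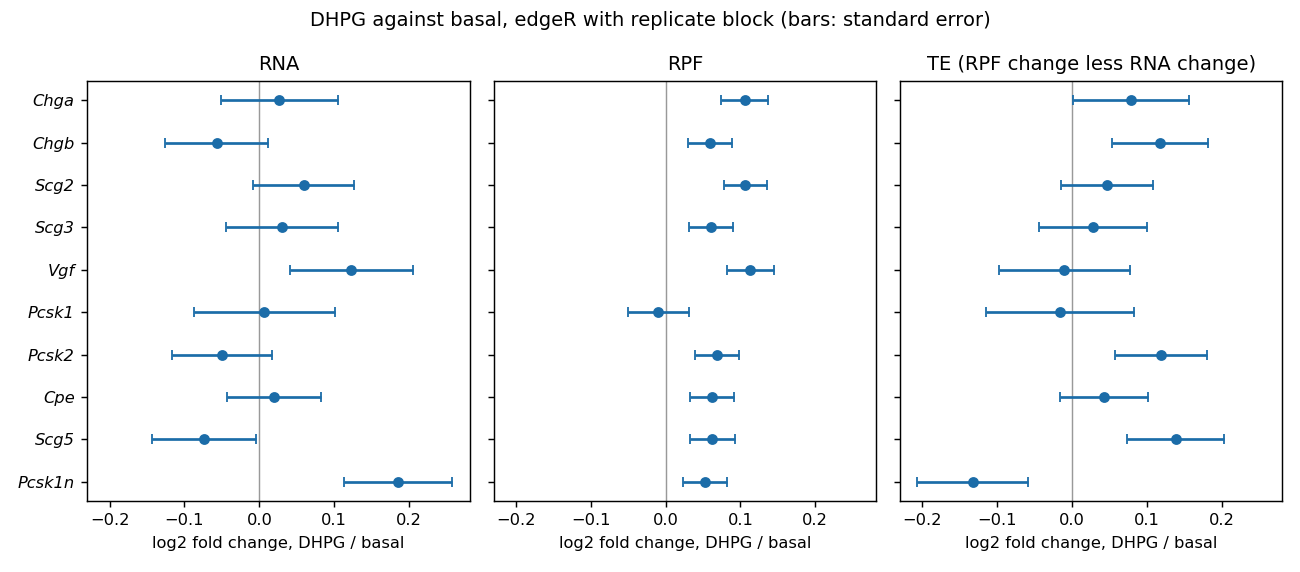
Fitted difference between DHPG and basal (x axis, log2 fold change, bars: SE) for each of the 10 genes (rows) in RNA, RPF and TE. In RPFs 9 of 10 points lie between 0.053 and 0.11 and Pcsk1 lies at -0.0099, whereas in RNA the points scatter from -0.074 (Scg5) to 0.19 (Pcsk1n) with wider bars.

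The genes around the granins in the pathway were described with the same fits. Of 20 neuropeptide and growth factor precursors, 17 had higher RPFs after DHPG, beside 51.4% of all genes, with a median of 0.096. At an unadjusted p under 0.05, 7 were higher and 1 was lower, beside 6.55% and 4.21% of all genes. The 1 called was Sst, the precursor of somatostatin, which marks a class of hippocampal interneurons. Its RPF level was 382, 370.0, 350.3, 361 and 349 CPM in basal slices and 414, 429, 392, 408 and 429 CPM after DHPG, without overlap of the groups. The share of all genes whose groups do not overlap was not counted. The RPFs of Sst rose by 0.20 ± 0.030 (log2, SE; adjusted p = 0.00066, edgeR), while the RNA difference was -0.12 ± 0.075 (adjusted p = 0.703) and the TE difference 0.31 ± 0.074 (adjusted p = 0.332). The call was kept with each replicate left out and lost without the replicate block (adjusted p = 0.99997).

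No other gene of these lists was called. In RPFs, 6 of 7 other convertases were higher, with the smallest p for Pcsk4 (0.57 ± 0.26; adjusted p = 0.419), a gene near 1 CPM. Of 5 enzymes that trim or modify peptides 4 were higher, with the smallest p for the carboxypeptidase Cpd (0.042 ± 0.032; adjusted p = 0.690). Of 13 vesicle membrane and biogenesis genes 8 were higher, with the smallest p for Resp18, a protein of the regulated secretory pathway (0.073 ± 0.038; adjusted p = 0.488). Of 8 genes of vesicle transport and release 7 were higher, with the smallest p for Cadps2, which primes vesicles for release (0.066 ± 0.035; adjusted p = 0.504). The medians of these 4 lists were 0.067, 0.017, 0.016 and 0.019. In RNA and TE 0 genes of the 5 lists were called by edgeR and by DESeq2 with the block. At an unadjusted p under 0.05, edgeR held 4 of the 47 tested in RNA and 5 of 47 in TE, beside 8.02% and 6.77% of all genes.

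Marker genes of cell types were placed beside the RPF differences, because several moved in the same direction. Astrocyte markers were higher after DHPG in 10 of 10 (median 0.075; summed RPF level 6071 to 7301 CPM in basal and 6214 to 7658 in DHPG libraries), microglia markers in 10 of 10 (0.090; 536 to 774 and 620.1 to 836 CPM) and oligodendrocyte markers in 8 of 10 (0.092; 4563 to 9416 and 5296 to 10670.1 CPM, with Mag called). Pan-neuronal markers were higher in 5 of 10 (0.0036; 8121 to 8651 and 8252 to 8885 CPM), interneuron markers in 6 of 12 (0.0036), CA3 and dentate markers in 6 of 10 (0.0067) and CA1 markers in 4 of 7 (0.0041). Endothelial markers were higher in 0 of 8 (-0.18, with 71.4 to 106 and 71.7 to 102 CPM). Of all genes 51.4% were higher and 0.22% were called.

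Thalamus markers had the largest median of the marker lists, at 0.27. Of 14 tested, 13 had higher RPFs after DHPG and 6 were called, beside 51.4% and 0.22% of all genes. Their summed level was 455 to 546 CPM in basal and 479 to 629 CPM in DHPG libraries. In RNA 11 of 12 were higher and 1 was called, beside 52.1% and 0.00773% of all genes. The lists were chosen with earlier results of these data known, so these counts are description and not a test. Of the choroid plexus markers 1 of 7 was tested, and their summed RPF level was 13.4 to 19.96 CPM over both groups. No listed marker was at 0 in all RPF libraries, and in RNA the choroid plexus marker Kcne2 was at 0 in all of them. Pan-neuronal markers, CA1 markers and CA3 and dentate markers were all detected in both assays. The lists share Sst, Npy, Vip and Cck (interneurons and precursors) and Calb2 (interneurons and thalamus), and the part of other cells or regions in the RPF differences of the 10 genes was not tested.

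Finally, each gene was compared with all others for the shape of its RPF levels over the 10 libraries, as the root mean square difference of centred log2 CPM across 12255 genes. The nearest gene was Ece1 for Chga (0.021), Ganab for Pcsk2 (0.024), Kit for Scg5 (0.030), Scarb2 for Scg2 (0.031) and Robo2 for Chgb (0.034). For Cpe it was Hepacam (0.041), for Pcsk1n Trappc5 (0.042), for Scg3 Cdh10 (0.049), for Vgf Pxdn (0.054) and for Pcsk1 Hsp90b1 (0.071). The profiles of Pcsk2 and Scg5, an enzyme and its chaperone, were the nearest to each other within the group (0.047), at place 50 among all genes for Pcsk2 and 15 for Scg5. Pcsk1n was farthest from the rest, its nearest member being Vgf at 0.22 and place 7590. The 10 libraries share replicate numbers, depth and base composition, which these distances contain.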

How the data were processed

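The deposited values are expected counts that the authors estimated with RSEM on mm10, 1 table per assay. For the fits they were rounded to whole counts. Per the study's methods, rRNA and tRNA reads were removed, and only unique reads without UMI duplicates were counted, over whole transcripts for RNA and over coding sequence without the first and last 30 nt for RPFs. Values in 12 further columns belong to libraries without labels here and were left out. R 4.3.3 with edgeR 4.0.16 was used for the quasi-likelihood F test (TMM, filterByExpr, replicate number as block), and calls were made at an adjusted p of 0.01 in RNA and 0.05 in RPF and TE. TE was the interaction in 1 fit of all 19 libraries, since anota2seq was not used here. Log2 CPM for distances and pair differences had no added count. A prior count of 2 was used for the correlations of same-numbered libraries, the GC and length trends and limma. CPM are TMM-normalised. Ratios used genes over 5 CPM per kb in both assays, with a coding sequence above 300 nt. Lengths and positions came from GENCODE M21, with 1 transcript per gene (the longest coding sequence). Rounded counts do not hold the uncertainty of read assignment, and reads split between paralogs cannot be reassigned. With the replicate block, the p-values measure how far the difference between DHPG and basal pools varied between replicate numbers. Without the block they measure the spread between pools of a group.

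Same-numbered libraries deviated together (correlations of 0.308 to 0.741 in RNA and 0.259 to 0.523 in RPFs), so the numbers were taken as pairs; replicate 5 has no basal RNA library and its DHPG library gives no contrast in the blocked RNA difference. Alternatives were DESeq2 1.42.0 and its size factors, ComBat (sva 3.50.0), limma 3.58.1, other filters and thresholds, no block, each replicate left out, other lengths and, chosen after seeing the data, removal of GC and length trends (loess, span 0.5). The steps were tested on simulated data. The members, lists and tests were chosen with earlier results of these data known. The genes named are the 10 members, listed genes that passed a threshold or had the smallest p of their list in RPFs, and the nearest profile of each member.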

Additional observations from a re-analysis of the deposited data

Results flagged for a closer look

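Of 60 groups of 4 or 5 libraries screened (each gene, assay and treatment, and the ratios), 4 had an extreme library by a range test (Dixon), against about 3 that chance alone would give. In DHPG RNA, replicate 1 was at 2981 CPM for Cpe, with the other 4 libraries between 2330.4 and 2467 CPM. In the same library Scg3 was at 218 CPM, with the others between 108 and 132 CPM. In DHPG RPFs, replicate 2 was at 693 CPM for Vgf, with the others between 571 and 604 CPM. The log2 RPF to RNA ratio of Chga was 2.60 in DHPG replicate 1, with the others between 2.91 and 2.97.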

How the results depend on the processing

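The 10 genes had 0 calls in RNA and in TE under every alternative run. In RPFs the 0 calls became 7 with ComBat followed by DESeq2, where 427 of 13208 genes were called. They became 1 with DESeq2 and the replicate block (Scg2, 28 of 13208 genes called) and 1 with no filter on low counts (Vgf, 96 of 16828). With a replicate left out they were 0 to 2, with 2 (Chga and Vgf) without replicate 3, where 71 of 13137 genes were called. The main fit called 29 of 13208 genes. Members with an unadjusted p under 0.05 fell without the replicate block to 0 in RPFs, 0 in RNA and 0 in TE, and with a replicate left out they numbered 4 to 8 in RPFs, 0 to 2 in RNA and 0 to 2 in TE. In TE there were 0 by limma and 2 with GC and length trends removed. The share of all genes at an unadjusted p under 0.05 was not counted for these alternatives. In the main fits it was 10.8% in RPFs, 8.02% in RNA and 6.77% in TE. RNAs above 0 numbered 4 to 6 with a replicate left out. The 1 call in the pathway lists in RPFs became 3 with ComBat and DESeq2 (Cck, Ptprn2 and Sst), 2 with DESeq2 and the block, 2 with no filter, 0 without the block and 1 to 2 with a replicate left out. The median log2 ratio of the 10 genes was 1.51 without length, beside -0.15 over all genes compared. The causes of these changes were not tested.

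Small differences changed sign. Chga RNA was -0.0082 without the replicate block and -0.0060 with trends removed, Vgf RNA was -0.0021 and Vgf TE 0.11 without the block, and Vgf TE was 0.030 with trends removed. Pcsk1 was -0.00022 in RNA with no filter and -0.0055 with ComBat and DESeq2, 0.00017 in RPFs with trends removed and 0.030 in TE by limma. With a replicate left out the ranges were -0.027 to 0.068 for Chga RNA, -0.032 to 0.051 for Cpe RNA, -0.053 to 0.077 for Pcsk1 RNA, -0.040 to 0.034 for Pcsk1 RPF, -0.090 to 0.037 for Pcsk1 TE, -0.022 to 0.089 for Scg3 RNA, -0.012 to 0.082 for Scg3 TE and -0.14 to 0.085 for Vgf TE.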
